A study of Mus musculus with 20 samples.

Results

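The genes described here are the translation initiation factor genes of the mouse: every gene whose annotated symbol begins with Eif and a digit. They number 47 of the 18193 genes measured, and comprise 41 factor genes, 4 genes of kinases that phosphorylate the factor eIF2, and 2 genes of 4E-binding proteins (4E-BPs), which hold the cap-binding factor eIF4E. A probe set is the group of short probes that an Affymetrix array carries for 1 transcript. The 47 genes had 133 probe sets that named 1 gene, of which the brightest, by its mean in the 20 arrays, stood for its gene; 37 genes had at least 1 more. Another 6 probe sets named several genes and were left out. Of 55 genes listed by role, 8 had no probe set naming them alone: Eif1, Eif2s1, Eif3g, Eif3j1, Eif3j2, Eif4g1, Eif4e1b and Eif4ebp3.

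The arrays followed erythroid progenitors of the CFU-E stage (colony-forming unit erythroid, precursors of red cells that need the hormone erythropoietin, Epo, to survive) from BALB/c fetal livers of E13.5 embryos. The cells had been depleted of Ter119+ erythroid cells and of other blood lineages with antibody-coated magnetic beads, and the labels give no transgene or deletion. One series received Epo at 0.5 U/ml and was sampled on 12 arrays, hourly from 0 to 8 h and then at 14, 19 and 24 h. The other was left untreated and sampled on 8 arrays, hourly from 0 to 7 h, so each treatment and time had 1 array and no untreated array was taken after 7 h. The records disagree on what came before: one describes a starvation of 1 h straight after sorting, the other a culture of 12 to 14 h with Epo at the same dose. The labels speak of embryos in the plural and name no single animal or culture, so the p-values below rest on the scatter of single arrays around a fit, which may be technical.

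Translation initiation joins the small ribosomal subunit, the initiator tRNA and the mRNA. eIF2 carries the initiator tRNA in its GTP form, eIF2B recharges it with GTP, eIF3 holds the small subunit and recruits the mRNA, and the eIF4F group binds the cap and unwinds the leader. Cells lower initiation through kinases that phosphorylate eIF2 and so block eIF2B, and through 4E-BPs that compete with eIF4G for eIF4E until mTOR phosphorylates them. In erythroid cells the heme-regulated kinase HRI, encoded by Eif2ak1, matches globin synthesis to the heme supply. Arrays of this kind read mRNA, not phosphorylation or protein.

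All values are deposited log2 signals, on which a difference of 1 is a 2-fold difference. The spread over the 18193 genes (SD) lay between 2.42 and 2.67 on the arrays with Epo and between 2.64 and 2.69 on the others. The 24 h array stood apart, with a median correlation of 0.942 with the other arrays of its series. Cish, a direct target of the Epo receptor, lay between 8.00 and 9.14 with Epo and between 5.45 and 6.81 without it at 1 to 7 h. The series already differed at 0 h: 10 of 10 hepatocyte markers were higher in the Epo series there, by a median of 1.39, and 0 of 9 granulocyte markers were higher, with a median difference of -0.93. The summed level of the hepatocyte list (log2) was 12.3 to 13.9 without Epo, 12.8 to 14.995 with Epo at 0 to 7 h and 8.73 to 12.8 at 8 to 24 h. Of its 10 genes, 10 fell over 7 h in each series, and Alb was 6.43 or higher on every array. The part of these cells in the members' values was not tested. The erythroid factor Klf1 lay between 11.3 and 12.8 on all arrays. In a mixed population, fewer cells of a type and less RNA per cell cannot be told apart.

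Of the 47 genes, 38 had a promoter in the RefSeq table for GRCm38.p6, which spans 250 bases before to 50 after each start. Upstream sequences are shown for genes that fell without Epo (Eif3d, Eif5 and Eif4a1) and genes that rose without it (Eif2ak1 and Eif4ebp2), the 2 directions in which members moved. Capitals mark matches to an E-box (CACGTG), an ETS motif (CCGGAAG, or CTTCCGG on the other strand), a YY1 motif (AAGATGGC) and an NF-Y motif (CCAATC), each searched on both strands. No marked match overlaps another.
Eif3d (chr15:77970825-77971074, minus strand): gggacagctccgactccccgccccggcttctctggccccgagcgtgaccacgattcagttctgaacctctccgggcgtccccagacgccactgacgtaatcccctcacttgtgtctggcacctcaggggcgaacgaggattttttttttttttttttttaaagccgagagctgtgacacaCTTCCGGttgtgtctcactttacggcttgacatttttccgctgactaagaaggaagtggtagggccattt
Eif5 (chr12:111537851-111538100, plus strand): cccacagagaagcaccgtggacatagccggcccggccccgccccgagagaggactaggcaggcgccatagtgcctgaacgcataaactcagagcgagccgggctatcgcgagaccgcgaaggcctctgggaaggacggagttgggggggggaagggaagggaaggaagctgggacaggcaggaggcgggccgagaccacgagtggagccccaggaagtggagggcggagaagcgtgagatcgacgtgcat
Eif4a1 (chr11:69672424-69672673, minus strand): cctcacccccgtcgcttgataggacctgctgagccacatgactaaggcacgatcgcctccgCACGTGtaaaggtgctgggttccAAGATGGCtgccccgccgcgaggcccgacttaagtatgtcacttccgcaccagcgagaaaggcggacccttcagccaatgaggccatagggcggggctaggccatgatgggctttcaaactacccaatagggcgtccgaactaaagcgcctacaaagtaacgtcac
Eif2ak1 (chr5:143817542-143817791, plus strand): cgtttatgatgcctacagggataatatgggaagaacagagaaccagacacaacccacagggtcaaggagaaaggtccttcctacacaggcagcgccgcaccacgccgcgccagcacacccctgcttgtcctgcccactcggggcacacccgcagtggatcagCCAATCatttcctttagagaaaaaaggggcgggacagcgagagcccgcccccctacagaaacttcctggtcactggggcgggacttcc
Eif4ebp2 (chr10:61452670-61452919, minus strand): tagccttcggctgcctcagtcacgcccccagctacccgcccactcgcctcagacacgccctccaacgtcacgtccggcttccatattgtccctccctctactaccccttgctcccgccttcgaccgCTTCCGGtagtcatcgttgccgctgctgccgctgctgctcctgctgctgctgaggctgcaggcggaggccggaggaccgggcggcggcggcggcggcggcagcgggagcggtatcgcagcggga
The ETS motif stood in the promoters of both a falling gene (Eif3d) and a rising one (Eif4ebp2), and Eif5 held none of the 4 motifs. Eif2ak1 had its ETS match 17 bases after the start, outside the stretch shown. Over the whole window, the ETS motif was in 15 of the 38 members (39.5%) and in 9.93% of 27025 genes, the E-box in 9 (23.7%) against 8.09%, and the YY1 motif in 5 (13.2%) against 3.19%. The NF-Y motif was in 7 members (18.4%) against 18.2%. Of motifs of factors tied to Epo or to erythroid cells, a STAT5 motif (TTCNNNGAA) was in 4 members (10.5%) against 9.55%, and a GATA motif (AGATAA) in 1 (2.63%) against 12.7%. The stress motif TGATGNAA was in 1 (2.63%) against 4.51%. These matches are letters in a window and were not measured as binding.

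Without Epo the mRNAs of many factors fell over 7 h while those of HRI and both 4E-BPs rose. With Epo over the same hours HRI and the 4E-BP gene Eif4ebp1 rose too, none of the falls was called, and from 14 h on many factor mRNAs lay lower. A gene was called where the limma p-value, adjusted over all 18193 genes, was under 0.05. In the untreated series, 19 of the 47 members fell and 7 rose between 0 and 7 h, where 15.4% of all genes fell and 13.3% rose, and the members' median change was -0.24 against -0.03 for all genes. Cell type markers moved over these hours as well: besides the hepatocyte list, 6 of 10 erythroid progenitor markers rose, with a median of 0.89, and 5 of 9 granulocyte markers fell, with a median of -0.73. The summed level (log2) was 14.1 to 15.1 for the erythroid and 8.53 to 10.97 for the granulocyte list without Epo, and 13.7 to 14.6 and 8.46 to 9.32 with it at 0 to 7 h. In the Epo series over the same hours, 3 rose, where 2.21% of all genes rose, and 0 fell in limma, where 5.88% did. At an unadjusted limma p under 0.05, 9 members rose and 3 fell. The share of all genes at that unadjusted threshold was not counted, here or below. From 14 h on with Epo, 21 members lay below their 1 to 8 h mean and 5 above it, against 18.5% and 17.6% of all genes. The median was -0.31 for the members and 0.08 for all genes. It was -0.15 for the 9096 genes above the median level, which include 44 of the members.

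**Figure D1:**
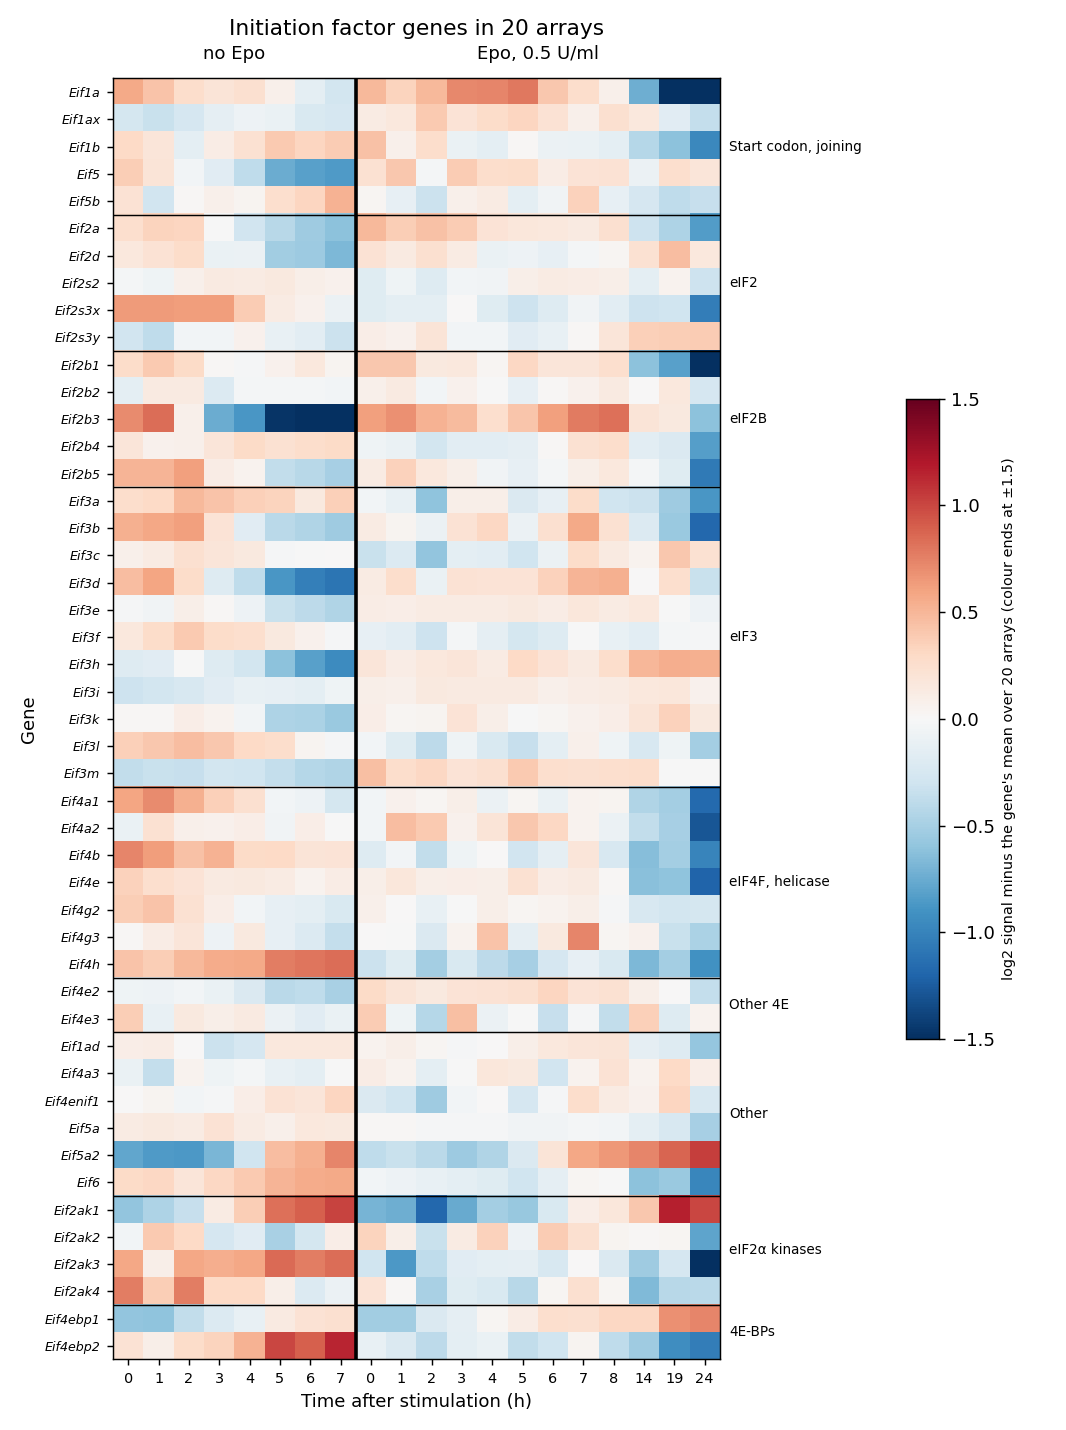
Each row is a gene, ordered by role, and each column is 1 array, ordered by time in h within the series without and with Epo; colour shows the log2 signal minus the gene's mean over the 20 arrays, with the colour scale ending at ±1.5. The rows of Eif2b3, Eif3d and Eif5 turn blue from 3 to 5 h without Epo and not with it over the same hours. Eif2ak1 and Eif5a2 turn red late in both series.

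Averaged over the 7 matched hours, the Epo series had 12 members higher and 12 lower than the untreated one, against 18.2% and 20.2% of all genes, and the median difference was 0.03 for the members and 0.03 for all genes. In the same comparison 8 of 10 hepatocyte markers were higher with Epo (median 0.88) and 6 of 10 erythroid progenitor markers lower (median -0.38). The difference (Epo minus untreated) rose between 1 and 7 h for 19 members and fell for 2, against 7.25% and 7.97% of all genes, and its median change was 0.20 against 0.00. Here 4 of 10 erythroid markers had a falling difference (median -0.60) and 3 of 9 granulocyte markers a rising one (median 0.43); the markers' part in the members' values was not tested. The change comparison and the untreated time course share the untreated arrays, so each gives its own values below and neither supports the other. Without the 2 h pair of arrays the 19 became 12, and 8 of the 21 members called kept their call in every alternative run: Eif2b3, Eif2s3x, Eif3b, Eif3d, Eif3k, Eif4a1, Eif4g2 and Eif5. Brighter genes are called more often on these arrays: among the 9096 genes above the median level, fitted on their own, 15.8% had a rising difference against 21 of 44 members (47.7%), 28.5% fell without Epo against 19 (43.2%), and 36.1% fell late against 22 (50.0%). A further fit was relative to each series' own 0 h array, with a linear drift. Its Epo effect was higher for 4 members and lower for 0, against 1.34% and 2.39% of all genes. The 4 members called were Eif2b3, Eif3d, Eif5 and Eif4a1. At an unadjusted limma p under 0.05, 10 members were higher and 2 lower, with no share of all genes counted. Without the drift term none was called, without the 1 h pair 8 were higher and 1 lower, and without the 6 h pair 2 were higher.

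**Figure D2:**
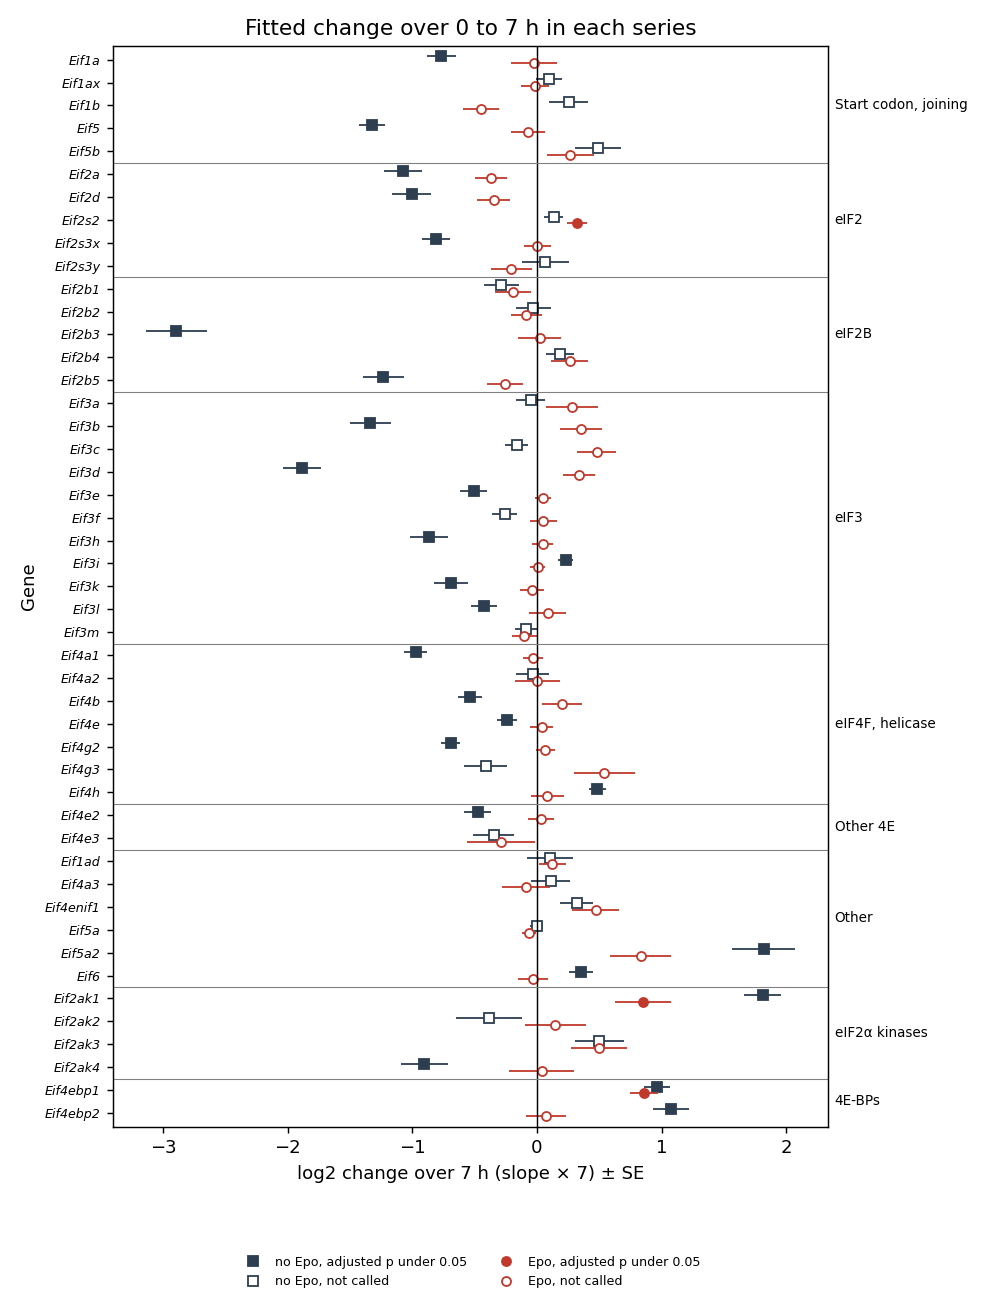
The fitted log2 change over 7 h (slope times 7, with its SE) is plotted for each gene in the untreated series (squares) and in the Epo series (circles), with filled symbols where the limma adjusted p was under 0.05. The filled squares reach from -2.89 for Eif2b3 to 1.82 for Eif5a2, whereas the 3 filled circles lie between 0.32 and 0.86.

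The 4 eIF2 kinases did not move as a group. Eif2ak1 (HRI) rose without Epo, from 8.64 at 0 h through 8.76, 8.88, 9.35, 9.59, 10.05 and 10.12 to 10.23 at 7 h. With Epo it was 8.52 at 0 h, then 8.49, 8.05, 8.47, 8.71, 8.66, 8.9997 and 9.32 at 7 h, 9.40 at 8 h, 9.63 at 14 h, 10.39 at 19 h and 10.22 at 24 h. The untreated value was the higher at every matched hour, although the ranges of both series overlap, and the treated cells reached the untreated 7 h level by 19 h. The fitted rise over 7 h was 1.81 ± 0.15 (SE) without Epo (adjusted p = 1.5e-05, 3.51-fold) and 0.85 ± 0.22 with it (adjusted p = 0.029, lost without the 6 h array, 0.10, or the 7 h array, 0.21). The mean matched difference was -0.90 ± 0.12 (adjusted p = 0.00012), and the late rise with Epo was 1.32 ± 0.25 (adjusted p = 0.00095), or 0.84 against 6 to 8 h alone. The change of the difference between 1 and 7 h was not called (-0.65 ± 0.25, adjusted p = 0.11). Nor was the effect from the own 0 h (-0.78 ± 0.24, adjusted p = 0.088). Without the 1 h pair the effect from the own 0 h was called, and after quantile normalization or without the 7 h pair the change was. The mean of all its probe sets gave a difference of -0.32 and a rise without Epo of 1.12. The second bright probe set of the gene gave -0.74 and 1.83. Dimmer ones, at mean levels of 6.89, 4.50 and 3.70, gave differences of 0.21, 0.04 and -0.19 and rises without Epo of 0.45, 1.12 and 0.36.

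Eif2ak3 encodes PERK, the kinase of the endoplasmic reticulum. It ranged from 6.35 to 7.11 without Epo, median 6.85, and from 5.40 to 6.27 with Epo, median 6.05, at 0 to 7 h. Every untreated array was above every treated one, the 0 h pair included (-0.87), and the difference of -0.88 ± 0.09 (adjusted p = 1.6e-05) did not widen, with a change of 0.00 ± 0.25 (adjusted p = 1). The mean of its probe sets gave -0.34. Eif2ak4, which encodes the amino acid sensor GCN2, ranged from 4.79 to 5.75 without Epo and from 4.50 to 5.22 with it. Its series overlap, and its difference of -0.36 ± 0.16 did not pass (adjusted p = 0.097), but it fell without Epo by 0.90 ± 0.19 on the log2 scale (adjusted p = 0.0035); its best probe set without a suffix gave -0.08. Eif2ak2 (PKR, activated by double-stranded RNA) lay at 4.20 to 5.08 without Epo and 4.35 to 5.07 with it. No comparison called it by its brightest probe set (difference 0.16 ± 0.15, adjusted p = 0.41). That probe set is dim, with a mean of 4.69 against a median of 4.91 for all genes. Another at 4.68 gave a difference of -0.56 ± 0.19 (SE over the hours), so no direction of the difference follows. Over the mean of its probe sets the gene was called lower with time without Epo and late with Epo.

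The 2 measured 4E-BP genes rose together without Epo and parted with it. Eif4ebp1, a main target of mTOR, was 9.88 at 0 h without Epo and 9.88, 10.11, 10.28, 10.37, 10.61, 10.70 and 10.72 at 1 to 7 h. With Epo it was 9.96, 9.96, 10.26, 10.34, 10.51, 10.59, 10.73 and 10.72 over the same hours, 10.79 at 8 and at 14 h, 11.16 at 19 h and 11.21 at 24 h. By this brightest probe set both series climbed along nearly the same path, with a matched difference of 0.06 ± 0.06 (adjusted p = 0.48). The rises were 0.96 ± 0.11 without Epo (adjusted p = 5.6e-05) and 0.86 ± 0.11 with it (adjusted p = 0.00025). Its 2 other probe sets were higher with Epo, by 0.20 ± 0.03 and 0.51 ± 0.11 (SE over the hours). The difference was called over the mean of its probe sets and for its best probe set without a suffix. The mean of its probe sets gave a rise of 0.57 without Epo. Its late value was 0.57 ± 0.16 above the 1 to 8 h mean (adjusted p = 0.013), a call lost without the 19 h array (0.51, adjusted p = 0.060), without the 24 h array (0.49, 0.068) or against 6 to 8 h alone (0.31).

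Eif4ebp2, the 4E-BP gene best known from brain, was 10.06 at 0 h without Epo, then 9.94, 10.12, 10.18, 10.37, 10.85, 10.75 and 10.99. With Epo it was 9.73, 9.62, 9.45, 9.70, 9.74, 9.47, 9.55 and 9.89 at 0 to 7 h, then 9.46, 9.32, 8.91 and 8.80 at 8, 14, 19 and 24 h. Every untreated array was above every treated one. The difference was -0.82 ± 0.13 (adjusted p = 0.00035), widened by a further -0.92 ± 0.22 between 1 and 7 h (adjusted p = 0.011, and 0.052 without the 6 h pair), and the rise without Epo was 1.08 ± 0.15 (adjusted p = 0.00021). With Epo the slope was 0.07 ± 0.16 (adjusted p = 0.89), and the late value fell by 0.60 ± 0.13 (adjusted p = 0.0029). Its second probe set gave -1.15 for the difference, whereas 3 dimmer ones gave 0.13, -0.06 and -0.06; over the mean of all of them the difference was -0.39, the widening turned to 0.04 and the rise without Epo was 0.24 (adjusted p = 0.22).

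**Figure D3:**
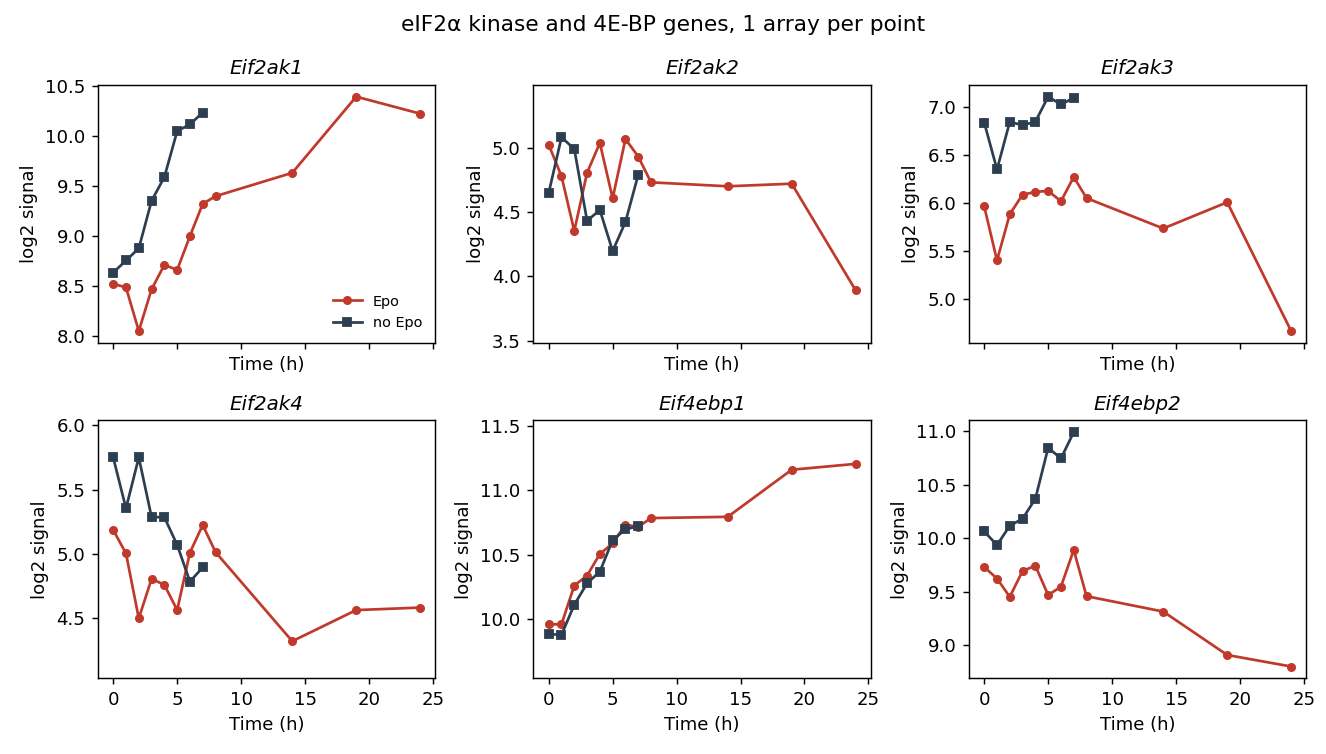
Each panel plots 1 gene's log2 signal against time in h, with squares for the untreated series and circles for the Epo series, 1 array per point; the vertical axes differ and do not start at 0. Eif4ebp1 runs along 1 path in both series, Eif2ak1 rises earlier without Epo, and for Eif2ak3 and Eif4ebp2 all untreated points lie above all treated ones.

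Of the eIF2B genes, which encode the 5 subunits of the exchange factor that eIF2 phosphorylation blocks, 1 showed the steepest change of all members. Eif2b3 (the gamma subunit, part of its catalytic half-complex) was 9.83 and 9.96 at 0 and 1 h without Epo, and then 9.20, 8.38, 8.25, 7.65, 7.45 and 7.35 at 2 to 7 h. With Epo it was 9.74, 9.80, 9.64, 9.60, 9.38, 9.53, 9.73 and 9.90, then 9.95, 9.32, 9.27 and 8.51 at 8, 14, 19 and 24 h. The series started together and parted from 2 h, and from that hour every untreated array was below the treated range of 0 to 7 h. The change without Epo was -2.89 ± 0.25 (adjusted p = 1.6e-05, a 7.42-fold fall), and with Epo it was 0.02 ± 0.17 (adjusted p = 0.97). The matched difference was 1.34 ± 0.28 (adjusted p = 0.0027), it grew by 2.68 ± 0.23 (adjusted p = 1e-05), and from its own 0 h it was 1.42 ± 0.21 (adjusted p = 0.0036). The gene has 1 probe set. Its late value of -0.66 ± 0.17 (adjusted p = 0.0074) became -0.39 without the 24 h array (adjusted p = 0.054).

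Eif2b5, the catalytic epsilon subunit, fell without Epo by 1.23 ± 0.17 (adjusted p = 0.00019), from 9.80 at 0 h to 8.79 at 7 h, and had 9.41 and 9.38 with Epo at those hours. Its difference averaged 0.07 ± 0.12 and changed sign, from -0.17 at 1 h to 0.59 at 7 h, a change of 0.91 ± 0.21 (adjusted p = 0.0073, and 0.058 without the 7 h pair). The mean of its probe sets gave -0.73 for the fall and 0.59 for the change. No fall without Epo was called for the regulatory subunits. Eif2b4 was lower with Epo at 7 of 7 hours, by -0.05 at 7 h to -0.44 at 4 h (-0.28 ± 0.08, adjusted p = 0.012). The 0 h pair of Eif2b4 showed a gap of similar size, -0.25. Relative to that pair the effect was -0.03 ± 0.18 and was not called (limma adjusted p = 0.97). Eif2b1 (0.07 ± 0.08) and Eif2b2 (0.03 ± 0.08) were not called in any comparison at 0 to 7 h. Eif2b1, the alpha subunit that senses phosphorylated eIF2, then fell late, from 9.48 to 9.86 at 1 to 8 h to 8.83, 8.63 and 7.58 at 14, 19 and 24 h (-1.31 ± 0.20, adjusted p = 0.00018, 2.48-fold). All 3 late arrays were below all 8 earlier ones.

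Among the genes of eIF2 and of initiator tRNA delivery, 3 of 5 fell without Epo, where 15.4% of all genes did. By the adjusted limma p 0 of 5 rose, where 13.3% of all genes did. At an unadjusted p under 0.05 the count that rose was also 0, with no share of all genes counted. Eif2a, whose product is a separate protein that can deliver the initiator tRNA, fell by 1.07 ± 0.16 (adjusted p = 0.0003), from 8.98 to 8.11, against 9.21 and 8.86 with Epo. It was 0.44 ± 0.11 higher with Epo (adjusted p = 0.0068) at 7 of 7 hours, though the mean of its probe sets gave 0.08. Eif2d, another such delivery factor, fell by 1.00 ± 0.16 (adjusted p = 0.00051; -0.23 for its best probe set without a suffix), with a difference of 0.23 ± 0.11 (adjusted p = 0.11). Eif2s3x, the X-linked gene of eIF2 gamma, started far apart at 0 h, at 12.36 without Epo and 11.54 with it, and its untreated level fell to 11.64 by 7 h, where the treated one was 11.67. It thus had a difference of -0.48 ± 0.09 (adjusted p = 0.0016) that closed by 0.79 ± 0.13 (adjusted p = 0.00071) and changed by -0.81 ± 0.11 without Epo (adjusted p = 0.00021). Its best probe set without a suffix gave larger values for all 3, namely -0.84, 1.25 and -1.27.

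Its Y-linked counterpart Eif2s3y ranged from 7.20 to 7.65 without Epo and from 7.41 to 7.77 with it (0.13 ± 0.10, adjusted p = 0.34). It was 7.94, 7.96 and 7.96 at 14, 19 and 24 h, above all earlier treated arrays (0.36 ± 0.12, adjusted p = 0.03). That call was lost without the 6, 14, 19 or 24 h array (adjusted p of 0.051 to 0.071), and over the mean of its probe sets the late value was 0.20 (adjusted p = 0.19). Of the 3 other sex-linked genes measured, the Y-linked Uty rose late as well (0.51 ± 0.15, adjusted p = 0.014), while Kdm5d, also Y-linked, had 0.18 ± 0.17 (adjusted p = 0.43) and the X-linked Xist 0.35 ± 0.13 (adjusted p = 0.053). In the Epo effect Kdm5d was lower (-1.53 ± 0.13, adjusted p = 7.7e-06) and Uty and Xist were not called. Kdm5d lay at 2.99 to 4.405 with Epo and at 4.33 to 5.11 without it, and Uty at 4.26 to 5.34 on all arrays. These are low signals, around or below the median of 4.91 for all genes. The part of the embryos' sex in these values was not tested. Eif2s2, the beta subunit of eIF2, rose slightly with Epo (0.32 ± 0.08, adjusted p = 0.02, lost without the 0, 6 or 7 h array at 0.089, 0.093 and 0.052, and without the intensity trend at 0.23), from 12.42 to 12.72, and had a difference of -0.08 ± 0.05. Other bright probe sets of Eif2s2, at mean levels of 11.65, 11.52 and 10.82, gave differences of -0.03, -0.003 and -0.33. Dimmer ones at 8.67 and 3.80 gave 0.36 and 1.26.

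The genes of eIF3, the large scaffold on the small ribosomal subunit, made up the largest group, with 11 members. Without Epo 6 of the 11 fell and 1 rose, against 15.4% and 13.3% of all genes, and their median change was -0.42. With Epo over the same hours limma called 0 of 11, where 2.21% of all genes rose and 5.88% fell, and the median was 0.05. Unadjusted limma p-values below 0.05 gave 2 rising and 0 falling, with no share of all genes counted. The difference rose between 1 and 7 h for 8 of 11, against 7.25% of all genes, and its median over the 11 was 0.69. Averaged over the matched hours, 6 were higher and 3 lower with Epo, against 18.2% and 20.2% of all genes, so the subunits did not share a direction there.

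Eif3d, whose product binds the cap of some mRNAs, changed most. Without Epo it was 11.81, 11.94, 11.62, 11.15, 10.97, 10.47, 10.32 and 10.25 at 0 to 7 h. With Epo it was 11.47, 11.61, 11.24, 11.56, 11.55, 11.55, 11.70 and 11.85, then 11.87, 11.35, 11.60 and 11.01 at 8, 14, 19 and 24 h. The untreated arrays were the higher ones to 2 h and the lower ones from 3 h on. The change without Epo was -1.88 ± 0.15 (adjusted p = 1.5e-05, a 3.69-fold fall), the difference rose by 2.13 ± 0.16 (adjusted p = 6.8e-06), and from the own 0 h it was 0.96 ± 0.15 (adjusted p = 0.0053). The mean matched difference of 0.62 ± 0.22 (adjusted p = 0.044) was called with all 7 hours and lost without the 3, 4, 5, 6 or 7 h pair (adjusted p of 0.068 to 0.12). Its only other probe set is dim, and the mean of both gave -0.84 without Epo, 0.81 for the rise of the difference and 0.60 from the own 0 h, which was then not called (adjusted p = 0.12).

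Eif3b, a core scaffold subunit, took the same course. Without Epo it was 10.86, 10.91, 10.94, 10.54, 10.16, 9.92, 9.88 and 9.80, and with Epo 10.45, 10.37, 10.24, 10.55, 10.64, 10.24, 10.57 and 10.90 at 0 to 7 h. The untreated arrays were above the treated ones to 2 h and below them from 4 h. Its change without Epo was -1.34 ± 0.16 (adjusted p = 9.7e-05), the difference rose by 1.72 ± 0.21 (adjusted p = 9.7e-05), and the mean difference of 0.20 ± 0.19 was not called (adjusted p = 0.45). With Epo it later went to 10.12, 9.77 and 9.15 at 14, 19 and 24 h (-0.83 ± 0.18, adjusted p = 0.0022).

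Other eIF3 genes were offset from the start. Eif3m was higher with Epo at 7 of 7 hours and already by 0.82 at 0 h: it ranged from 11.004 to 11.18 without Epo and from 11.66 to 11.90 with it, and the ranges do not overlap. Its difference was 0.63 ± 0.06 (adjusted p = 9.6e-06; 0.28 for the mean of its probe sets) and from its own 0 h -0.19 ± 0.13 (adjusted p = 0.5). Eif3i, at 12.63 to 12.87 and 13.02 to 13.09, was likewise apart throughout (0.28 ± 0.04, adjusted p = 0.00033) and rose a little without Epo (0.23 ± 0.06, adjusted p = 0.013; 0.059 without the 0 h array and 0.16 without the intensity trend). Eif3a (-0.43 ± 0.10), Eif3f (-0.35 ± 0.07) and Eif3l (-0.45 ± 0.10; -0.23 for the mean of its probe sets) were lower with Epo, with adjusted p of 0.0066, 0.0025 and 0.0037. Eif3c was at -0.27 ± 0.10 (adjusted p = 0.058). Eif3l lay between 11.31 and 11.78 without Epo and between 10.93 and 11.40 with it.

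Eif3h, a member of the MPN-domain pair of subunits, was 11.90, 11.92, 12.08, 11.89, 11.81, 11.47, 11.27 and 11.15 without Epo and stayed within 12.20 to 12.38 with it at 0 to 7 h. All treated arrays were above all untreated ones. The difference was 0.61 ± 0.12 (adjusted p = 0.0015) and rose by 1.00 ± 0.15 (adjusted p = 0.00039), and with Epo the late values of 12.59, 12.63 and 12.62 were higher still (0.34 ± 0.06, adjusted p = 0.00099). The mean of its probe sets gave 0.26 for the difference and 0.32 for its rise, which then missed the threshold (adjusted p = 0.33). Eif3e was higher by 0.30 ± 0.08 (adjusted p = 0.0082) and fell without Epo (-0.51 ± 0.11, adjusted p = 0.0037), but its best probe set without a suffix gave 0.06 and 0.13. Eif3k was higher by 0.26 ± 0.09 (adjusted p = 0.037), a call lost without the 3, 4, 5, 6 or 7 h pair (adjusted p of 0.053 to 0.11), and fell without Epo (-0.69 ± 0.14, adjusted p = 0.0025).

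**Figure D4:**
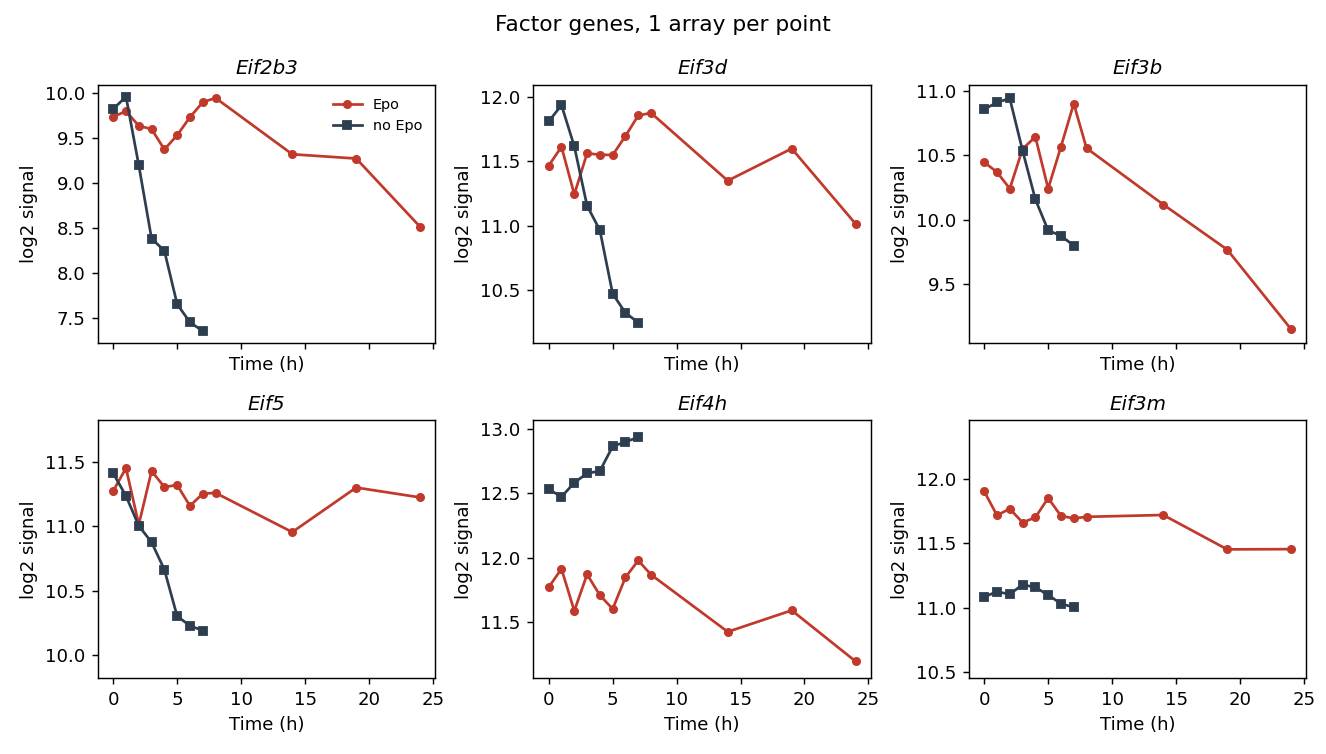
Each panel plots 1 gene's log2 signal against time in h, with squares for the untreated series and circles for the Epo series, 1 array per point; the vertical axes differ and do not start at 0. Eif2b3, Eif3d, Eif3b and Eif5 differ by -0.41 to -0.09 at 0 h and have crossed and parted by 4 h, whereas Eif4h and Eif3m lie apart from 0 h on.

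The eIF4F and helicase genes fell without Epo in 4 of 7 cases and rose in 1, against 15.4% and 13.3% of all genes, and late with Epo 6 of 7 fell, against 18.5%. Eif4a1 encodes the main RNA helicase of initiation. Without Epo it was 13.32, 13.44, 13.27, 13.08, 12.97, 12.69, 12.66 and 12.47, and with Epo it stayed within 12.63 to 12.82 at 0 to 7 h. The untreated arrays began above all treated ones and ended, at 7 h, below them. Its change without Epo was -0.97 ± 0.09 (adjusted p = 2.2e-05) and the difference rose by 0.89 ± 0.11 (adjusted p = 0.00014), with a mean of -0.20 ± 0.10 (adjusted p = 0.14). From its own 0 h it was 0.42 ± 0.11 (adjusted p = 0.042), lost without the 5, 6 or 7 h pair (adjusted p of 0.082 to 0.12) and without the intensity trend (0.30). Eif4g2 (an eIF4G relative that does not bind eIF4E) fell from 13.04 to 12.44 without Epo (-0.69 ± 0.07, adjusted p = 4.3e-05; -1.21 for its best probe set without a suffix) and had a mean difference of -0.01 ± 0.09.

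Eif4h, a helicase cofactor, was the member with the lowest mean difference. It ranged from 12.47 to 12.94 without Epo, median 12.66, and from 11.59 to 11.98 with it, median 11.81, with no overlap and a gap of -0.76 already at 0 h. The difference was -0.94 ± 0.07 (adjusted p = 4.2e-06) and from the own 0 h -0.18 ± 0.15 (adjusted p = 0.63), and the rise without Epo was 0.48 ± 0.07 (adjusted p = 0.00029). Its 2 other bright probe sets gave differences of -0.76 and -0.63, and the mean of all 6 gave -0.34. Eif4b, the other helicase cofactor, was 11.15 at 0 h and 10.63 at 7 h without Epo and 10.22 and 10.59 with it (-0.47 ± 0.09, adjusted p = 0.0019), a gap that closed by 0.61 ± 0.18 (adjusted p = 0.031, lost without the 2, 6 or 7 h pair at 0.10, 0.077 and 0.26). Eif4g3 (an eIF4G paralog) was between 6.32 and 6.86 without Epo and between 6.46 and 7.42 with it. Its difference of 0.19 ± 0.15 rose by 1.08 ± 0.30 (adjusted p = 0.025), but without the 7 h pair by 0.64 (adjusted p = 0.31), without the 2 h pair by 0.94 (adjusted p = 0.092), and over the mean of its probe sets by 0.06.

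The cap-binding gene Eif4e itself barely moved in the first hours by its brightest probe set. It ranged from 11.42 to 11.71 without Epo and from 11.45 to 11.60 with it at 0 to 7 h, with a difference of -0.02 ± 0.05 (adjusted p = 0.83). Its other probe sets, at mean levels of 9.84, 7.20 and 3.05, gave 0.29 ± 0.05, 0.35 ± 0.10 and 0.09 ± 0.07 (SE over the hours). An equal level of the gene in both series therefore does not follow. The small fall without Epo (-0.24 ± 0.08, adjusted p = 0.042) was lost without the 0, 1, 2, 5 or 6 h array (adjusted p of 0.060 to 0.20), and the mean of its probe sets gave -0.07. Eif4a2, the second helicase gene, had a difference of 0.19 ± 0.08 (adjusted p = 0.078). Eif4e2, whose product binds the cap without eIF4G, was higher with Epo at 7 of 7 hours (10.52 to 10.69 against 9.89 to 10.33, no overlap; 0.46 ± 0.09, adjusted p = 0.0012), but the mean of its probe sets gave 0.10. Eif4e3 lay at 3.47 to 4.35 on all arrays and was not called (-0.06 ± 0.10).

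Of the genes for start codon selection and subunit joining, 3 of 5 were higher with Epo, where 18.2% of all genes were. Eif5, which triggers GTP hydrolysis by eIF2 at the start codon, was 11.41, 11.23, 11.0027, 10.88, 10.66, 10.30, 10.23 and 10.19 without Epo. With Epo it ranged from 11.01 to 11.45 at 0 to 7 h and from 10.95 to 11.30 at 14 to 24 h. The untreated arrays were below the treated range of 0 to 7 h from 2 h on, narrowly at 2 h. The change without Epo was -1.32 ± 0.11 (adjusted p = 1.5e-05), the difference was 0.63 ± 0.12 (adjusted p = 0.0018) and rose by 1.04 ± 0.17 (adjusted p = 0.0011), and from the own 0 h it was 0.77 ± 0.16 (adjusted p = 0.021, 0.077 without the 6 h pair and 0.091 without the intensity trend). All 4 other probe sets of Eif5 gave differences above 0, from 0.54 to 0.97, and falls without Epo of -0.50 to -1.72.

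The 2 genes of eIF1A, which scans for the start codon, differed in time by their brightest probe sets. The 2 other probe sets of Eif1ax are dimmer and changed by -0.89 and -1.41 without Epo, downward as Eif1a did. That fall of Eif1ax was called over the mean of its probe sets and for its best probe set without a suffix. Eif1ax was higher with Epo throughout, at 11.66 to 11.98 against 11.25 to 11.51, with 0.38 at 0 h (0.43 ± 0.06, adjusted p = 0.00014; 0.77 for the mean of its probe sets). Eif1a was 10.16 at 0 h without Epo and 9.32 at 7 h (-0.77 ± 0.12, adjusted p = 0.00042), and its difference was 0.42 ± 0.10 (adjusted p = 0.0051). Eif1b (-0.22 ± 0.10, adjusted p = 0.11) and Eif5b, which joins the subunits (-0.15 ± 0.10, adjusted p = 0.26), were not called.

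Of the remaining factors, Eif5a2 moved furthest. Its product is the second form of eIF5A, which carries hypusine and helps elongation. It was 6.66, 6.59, 6.57, 6.75, 7.15, 7.91, 7.97 and 8.17 without Epo at 0 to 7 h. With Epo it was 7.06, 7.11, 7.04, 6.90, 6.99, 7.23, 7.63 and 8.02, then 8.10, 8.17, 8.31 and 8.48 at 8, 14, 19 and 24 h. Both series climbed, the untreated one from 4 h and the treated one from 6 h, and their ranges overlap. The change was 1.82 ± 0.25 without Epo (adjusted p = 0.00023) and 0.83 ± 0.24 with it (adjusted p = 0.052), and the late difference was 0.94 ± 0.25 (adjusted p = 0.0079; 0.41 against 6 to 8 h alone, adjusted p = 0.17). Its difference fell by 0.95 ± 0.29 between 1 and 7 h (adjusted p = 0.042), a call lost without the 1, 2, 3, 4, 5 or 6 h pair (adjusted p of 0.052 to 0.15). The main form, Eif5a, lay at 13.71 to 13.84 without Epo and at 13.57 to 13.64 with it (-0.16 ± 0.03, adjusted p = 0.0023). Its call was lost without the intensity trend (adjusted p = 0.062), and the mean of its probe sets gave -0.28.

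Eif6, which keeps the large subunit from joining early, lay at 11.18 to 11.57 without Epo and 10.69 to 11.03 with it, with no overlap (-0.54 ± 0.07, adjusted p = 0.00014). Its probe sets disagree: the other one gave 0.58 (adjusted p = 0.001), and the mean of both 0.02, so no direction of the gene follows. Eif4enif1 (the carrier of eIF4E into the nucleus) was at -0.24 ± 0.09 and Eif1ad at 0.08 ± 0.07. The 1 probe set naming Eif4a3 alone, a helicase of the exon junction complex, was at 0.09 ± 0.09 on a level of 3.49 to 4.15. None of these genes was called in the Epo effect. The other probe set of Eif1ad, at a mean level of 8.75, gave -0.40 ± 0.09 (SE over the hours), of opposite sign.

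Genes around initiation, taken from lists by pathway, were counted the same way. The shares of all genes to read these counts against are 18.2% higher and 20.2% lower with Epo, 13.3% rising and 15.4% falling without it, and 7.25% and 7.97% for a rising and a falling difference. From the own 0 h the shares are 1.34% higher and 2.39% lower. The mean differences given below for single genes are not relative to 0 h, where the series already differed. Of 19 partners of eIF2 phosphorylation, 12 were lower and 1 higher with Epo, with a median of -0.48, and 7 rose and 2 fell without Epo. From the own 0 h, limma called 2 of the 19 lower and 0 higher, with a median of -0.25. Ddit3 (CHOP, a stress transcription factor) had the most negative difference, -2.90 ± 0.21 (adjusted p = 2.9e-06), and rose by 4.46 ± 0.92 without Epo, by 2.24 ± 0.18 with it over 7 h and by 3.20 ± 0.38 late. Atf3 (-1.41 ± 0.28) and the phosphatase subunits that reverse eIF2 phosphorylation, Ppp1r15a (-1.28 ± 0.12) and Ppp1r15b (-1.23 ± 0.17), were lower as well, with adjusted p of 0.002, 9.7e-06 and 0.00017. Ppp1r15b rose without Epo (1.32 ± 0.23, adjusted p = 0.001) and had -0.06 ± 0.18 with it.

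Of 17 measured regulators of mTOR and eIF4E, 7 were lower and 1 higher with Epo, and 7 rose and 2 fell without it. The median difference was -0.21. Relative to the own 0 h arrays, limma called 0 higher and 0 lower, against 1.34% and 2.39% of all genes, with a median of -0.12. Pdcd4, which blocks eIF4A, was lower by -1.53 ± 0.13 (adjusted p = 5.3e-06). The mTOR inhibitors Ddit4 (-1.29 ± 0.43, adjusted p = 0.033) and Tsc1 (-0.87 ± 0.18, adjusted p = 0.0025) and the eIF4E kinase gene Mknk2 (-1.08 ± 0.11, adjusted p = 2.1e-05) were lower too. Tsc1 rose without Epo by 1.66 ± 0.29 (adjusted p = 0.001).

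Of 9 poly(A)-binding and cap-complex partners, 5 were lower with Epo and 0 higher in limma (also at an unadjusted p under 0.05), and without Epo 5 fell and 1 rose. Their median difference was -0.38. Relative to the own 0 h arrays it was 0.12, with 1 lower and 0 higher in limma, against 2.39% and 1.34% of all genes. The poly(A)-binding protein genes Pabpc1 (-0.72 ± 0.06, adjusted p = 3.5e-06) and Pabpc4 (-0.72 ± 0.09, adjusted p = 8.8e-05) and their partners Paip1 (-0.58 ± 0.09) and Paip2b (-0.55 ± 0.11) were lower. Of 14 elongation, termination and recycling genes, 3 were higher and 5 lower with Epo, and 7 fell and 1 rose without it. The median difference of these 14 was -0.19. Relative to the own 0 h arrays it was 0.15, with 1 higher and 0 lower in limma. Dhps, the first enzyme of hypusine synthesis on eIF5A, was higher (1.16 ± 0.15, adjusted p = 8.9e-05) and fell without Epo (-1.69 ± 0.30), as did Eef1e1 (1.06 ± 0.15 and -1.18 ± 0.11). Eef2 (-0.81 ± 0.07) and its kinase gene Eef2k (-0.75 ± 0.12) were lower.

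Of 18 cytosolic aminoacyl-tRNA synthetases, 2 were higher and 9 lower with Epo, yet their difference rose between 1 and 7 h for 10 and fell for 1, with a median of 0.72. The median of the mean difference was -0.35. Relative to the own 0 h arrays it was 0.07, with 2 higher and 0 lower in limma, against 1.34% and 2.39% of all genes. Rars (arginyl) went the way of Eif2b3: it fell without Epo (-2.63 ± 0.22, adjusted p = 1.5e-05), had 0.14 ± 0.18 with it, and its difference rose by 2.68 ± 0.19 (adjusted p = 4.2e-06). Aars (alanyl) went the other way, with a rise of 2.21 ± 0.15 without Epo (adjusted p = 1.2e-05) and a difference of -1.07 ± 0.16 (adjusted p = 0.00025). Vars and Sars were lower with Epo (-0.75 ± 0.09 and -0.72 ± 0.07, adjusted p = 8.2e-05 and 1.9e-05).

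The late arrays with Epo, at 14, 19 and 24 h, were set against the 1 to 8 h arrays of the same series, since no untreated array reaches those hours. Eif1a changed most, from 9.67 to 10.38 at 1 to 8 h to 8.86, 7.70 and 6.55 (-2.36 ± 0.32, adjusted p = 9e-05, a 5.14-fold fall). The next largest falls were those of Eif2b1, given above, of Eif4a2 and of Eif4e. Eif4a2 went from 9.54 to 10.08 at 1 to 8 h to 9.26, 9.12 and 8.34 (-0.94 ± 0.18, adjusted p = 0.00088), and Eif4e from 11.38 to 11.60 to 10.74, 10.76 and 10.17 (-0.93 ± 0.11, adjusted p = 4.5e-05). For each of these genes every late array was below every earlier one, and the 24 h array was the lowest.

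The members that rose late were Eif2ak1, Eif5a2, Eif4ebp1, Eif2s3y and Eif3h. Among the eIF4F genes, Eif4a1 went down to 12.28, 12.22 and 11.57 (-0.72 ± 0.12, adjusted p = 0.0003), while Eif4g3 was not called (-0.38 ± 0.19, adjusted p = 0.13). Without the 24 h array, which stands apart, 13 members fell and 3 rose in place of 21 and 5. Of all 18193 genes, 1814 rose in that run in place of 3207, and the number that fell stayed within 1.5 times of 3372. Without the 19 h array 3 members rose. Against the 6 to 8 h arrays alone 12 members fell and 2 rose, where 1851 of all genes fell and 1045 rose. Over the same interval 8 of 10 hepatocyte markers fell, by a median of -3.06, and 7 of 10 erythroid markers rose and 1 fell, with a median of 0.46; their part in the members' late change was not tested.

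**Figure D5:**
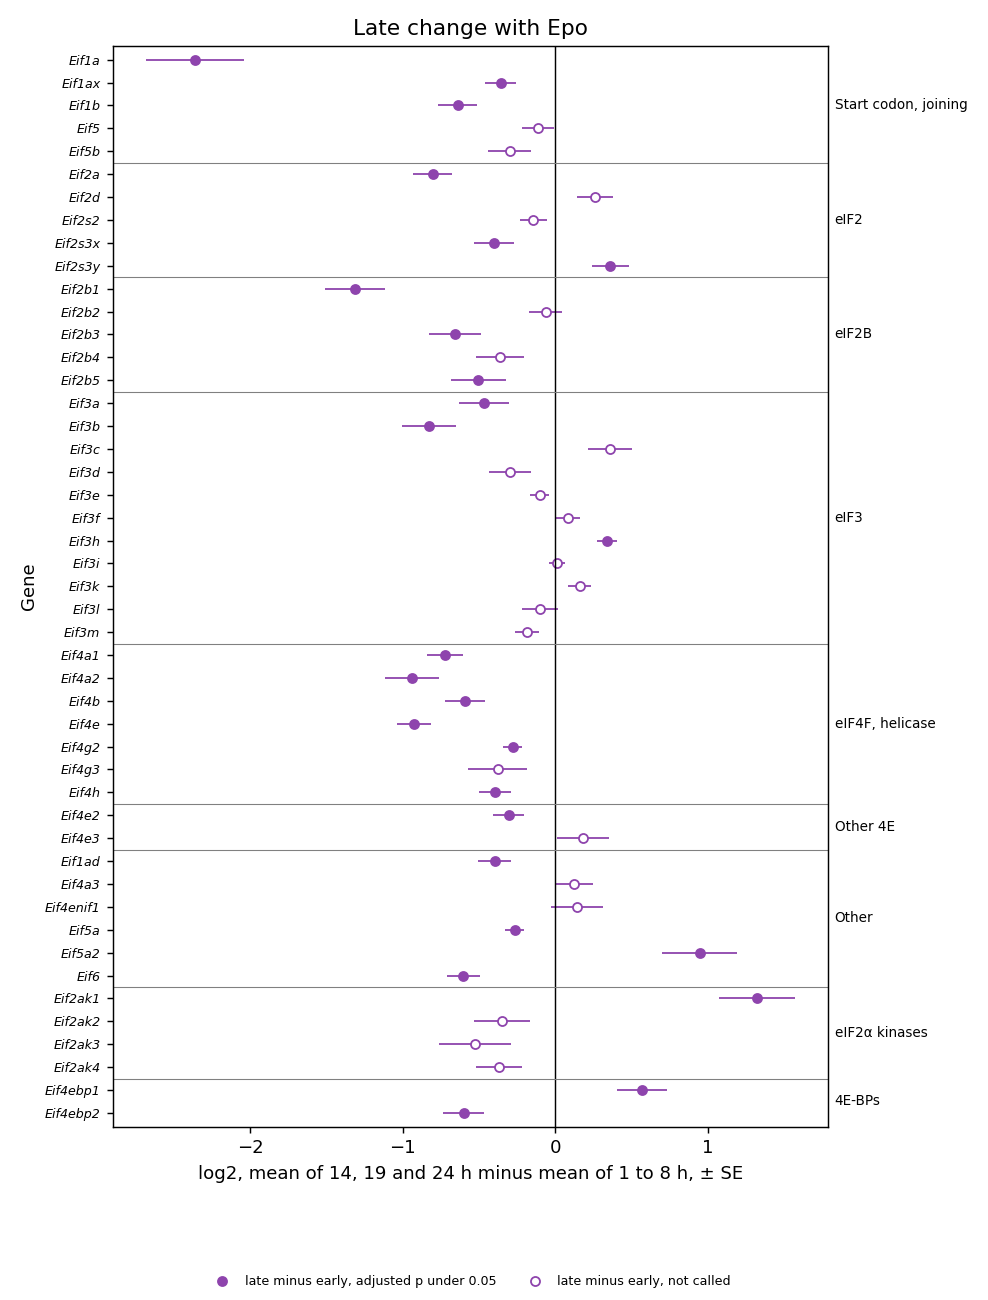
The log2 mean of the 14, 19 and 24 h arrays minus the mean of the 1 to 8 h arrays with Epo is plotted for each gene with its SE, filled where the limma adjusted p was under 0.05. The 21 filled points left of 0 reach -2.36 for Eif1a, and the 5 to the right reach 1.32 for Eif2ak1.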

How the data were processed

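The values are the submitters' processed table for 20 Affymetrix arrays of mouse CFU-E cells. Per the deposited table, they are on the log2 scale, from 1.37 to 14.56; the authors' summarization and normalization are not given in the sources used here, and the values were taken as deposited. Probe sets were named from the platform annotation supplied: of 45101, 34945 named 1 gene, 932 several and 9160 none, and 64 were controls. Each of 18193 genes was read from its brightest probe set by mean.

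Fits used limma 3.58.1 (lmFit, and eBayes with an intensity trend) in R 4.3.3 on all genes, with Benjamini-Hochberg adjustment over them. The Epo effect used 14 arrays with the hour as a block, the effect from the own 0 h used 16 arrays with a linear drift, each time course used 8 arrays, and the late comparison used 11. Fits were tested on simulated data. Python 3.11.15 and pandas 2.3.3 were used for counts and motifs.

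The members and lists were chosen with earlier results of these data known. Every member is named; values by array, or their range or end points, are given for the kinases, the 4E-BPs, the 12 other members with the largest called Epo effect and, in each other comparison, the 4 largest rises and falls, while Eif4a1, Eif3i, Eif2b5 and further members were described after their values were seen. Pathway genes are the 4 largest called per list. Alternatives changed the normalization, the probe set rule, the variance model and the arrays included. Arrays differ in no count depth; their number limits the precision.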

Additional observations from a re-analysis of the deposited data

Results flagged for a closer look

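Eif1b had 1 hour far from the others: its matched difference was 0.40 at 2 h, whereas the other 6 hours lay between -0.49 and -0.10. Chance flags about 1 in 20 such groups, and 47 members were looked at.

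For 21 members the Epo effect differed between early and late hours by the limma test of its change between 1 and 7 h, adjusted over all genes. Among eIF3 genes the difference rose by 0.45 for Eif3f, 0.59 for Eif3e, 0.69 for Eif3l, 0.70 for Eif3k, 0.72 for Eif3c, 1.00 for Eif3h, 1.72 for Eif3b and 2.13 for Eif3d. Among eIF2 and eIF2B genes it rose by 0.71 for Eif2d, 0.75 for Eif2a, 0.79 for Eif2s3x, 0.91 for Eif2b5 and 2.68 for Eif2b3. Among the rest it rose by 0.57 for Eif4e2, 0.61 for Eif4b, 0.76 for Eif4g2, 0.89 for Eif4a1, 1.04 for Eif5 and 1.08 for Eif4g3, and it was -0.92 for Eif4ebp2 and -0.95 for Eif5a2. Of these, Eif3e (-0.06) and Eif4ebp2 (0.04) changed sign under another choice of probe set. Leaving out 1 pair of arrays ended the call for 11 of the 21: Eif2a, Eif2b5, Eif2d, Eif3c, Eif3f, Eif3l, Eif4b, Eif4e2, Eif4ebp2, Eif4g3 and Eif5a2. Without the 7 h pair the values became 0.28 for Eif3f (adjusted p = 0.38), 0.45 for Eif3l (adjusted p = 0.21), 0.50 for Eif3c (adjusted p = 0.19), 0.64 for Eif2d (adjusted p = 0.14) and 0.64 for Eif4g3 (adjusted p = 0.31). Eif2d also gave 0.38 and Eif4e2 0.14 for the best probe set without a suffix, neither called.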

How the results depend on the processing

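Counts for the Epo effect and for time without Epo stayed within 1.5 times under every alternative run. From the own 0 h, 4 members higher became 2 without the intensity trend, 0 without the drift and 2 to 8 when 1 hour was left out, and 0 lower became 0 to 1. For the change of the Epo effect, 19 higher became 11 over the mean of all probe sets and 12 to 20 with 1 hour left out; 2 lower became 4 after quantile normalization, 1 after median centring, 0 over the mean of probe sets and 0 to 3 with 1 hour left out. With Epo over 0 to 7 h, 3 higher became 1 to 4 with 1 array left out. Late, 5 higher became 2 and 21 lower became 12 against 6 to 8 h, and 3 to 6 and 13 to 24 with 1 array left out.

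Values that reversed did so with the choice of probe set. The Epo effect of Eif6 was 0.023 over the mean of its probe sets and 0.58 for the probe set without a suffix, which also gave -0.29 for Eif6 and 0.13 for Eif3e in time without Epo and -0.062 for Eif3e in the change; the change of Eif4ebp2 was 0.045 over the mean. Of 104 called values of single members, 6 alternative values were reversed, 164 missed the threshold and 1502 kept direction and side. Over all genes, calls from the own 0 h (244 higher, 434 lower) became 138 and 276 over the mean of probe sets, 93 and 234 without the trend, 3 and 9 without the drift, 818 and 1189 without the 1 h pair, 125 and 245 without the 5 h pair and 45 and 128 without the 6 h pair; without the 2 h pair 393 were higher. For the change, 1319 higher and 1450 lower became 875 and 861 without the 6 h pair. With Epo, 402 higher became 242 without the 1 h and 233 without the 6 h array, and 1070 lower became 693 at 1 to 7 h and 682 without the 6 h array. Late, 3207 higher became 1775 in brighter genes, 1045 against 6 to 8 h and 1814 without the 24 h array, and 3372 lower became 1851 against 6 to 8 h. The labels give no replicate numbers; the Epo effect was paired by hour, and without the hour as a block 1 call was lost and 1 gained. Each condition and hour has 1 array, the series differed at 0 h, and low signals such as that of Eif4e3 limit what can be seen.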

Other observations

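Of the 6 probe sets that named several genes, 3 named the pair Eif3j1 and Eif3j2, the loosely bound subunit of eIF3 that acts at the decoding center. All 3 were lower with Epo over the 7 matched hours, by mean differences of -0.97 ± 0.07, -0.54 ± 0.09 and -0.73 ± 0.08 (SE over the hours), and their levels without Epo moved by 0.63, 0.45 and 0.72 over 7 h, against 0.37, 0.29 and 0.33 with it. No limma test was run on them, and the 2 genes cannot be told apart.

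A probe set naming Gm5576 and Eif4a3 had a mean level of 10.9. It was at -0.27 ± 0.06 for the mean difference and -0.76 for the late change. A probe set naming Ankhd1 and Eif4ebp3 was at 0.15 ± 0.20, and 1 naming Eif1a with 2 other loci had a mean level of 2.14 and a difference of 0.17 ± 0.06.

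Over the other probe sets of members that were called, 35 of 47 (74.5%) had the same sign in the Epo effect, 37 of 45 (82.2%) in its change, 45 of 57 (78.9%) without Epo and 43 of 48 (89.6%) late.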
